A study of Homo sapiens with 24 samples.

Results

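The mRNAs of COPI, COPII and the early secretory transport machinery were followed in U2OS cells, a human osteosarcoma line, between a soluble and an insoluble fraction of the cytoplasm. The set holds 38 genes of 60308 in the exon count table and was chosen by symbol after the COPI subunit COPG1 had been seen to lose its enrichment in the insoluble fraction under arsenite. The values that chose the set are therefore COPG1's own exon counts in the Ctrl and NaAsO2 libraries. These are described without a test, and counts of calls that rest on Ctrl or NaAsO2 libraries cover the other 37 genes. All 38 genes passed the filter of a mean of 1 CPM (counts scaled to library size, with TMM factors) in the exon counts, as did 17666 genes in all. In the intron counts 33 of the 38 passed, and PREB, KDELR2, TMED7, ARF3 and ARF5 did not.

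Transport vesicles that leave the endoplasmic reticulum (ER) carry the COPII coat, in which SAR1 recruits the SEC23/SEC24 cargo-binding layer and the SEC13/SEC31 cage at exit sites organised by SEC16. COPI, a coat recruited to Golgi membranes by ARF GTPases and their exchange factor GBF1, carries escaped ER proteins and cycling receptors back from the Golgi. KDEL receptors retrieve soluble ER proteins, TMED (p24) proteins cycle as cargo receptors, and SEC22B is a SNARE of the same route. KDEL receptors and TMED proteins are membrane proteins made on ER-bound ribosomes, whereas the coat subunits and GTPases are made in the cytosol.

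The study asked how the ATPase activity of DDX3, an RNA helicase found in stress granules, shapes the RNA of the granule-enriched pellet. Cells received 0.12% DMSO for 2 h (Ctrl), 500 µM sodium arsenite for 60 min (NaAsO2), 6 µM RK-33, an inhibitor of DDX3, or RK-33 for 1 h before arsenite (Combo). Each of the 4 treatments gave a soluble fraction and an insoluble fraction, with 3 libraries per group and 24 in all. The insoluble fraction is whatever pellets at higher speed after NP-40 lysis and removal of nuclei, so it is enriched for granules without being a purified granule. By the study's methods the fractionation and sequencing were repeated as whole experiments. The labels do not name the cultures, and p-values measure the spread between these repeats.

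Libraries held 8627294 to 15376554 exon counts, of which the 38 genes took 0.262% to 0.456%. The smallest member count in a library was 41 (COPZ2) and the largest 9155 (SEC16A). Counts are relative to the other RNA of the same library, so a fall in one RNA and a rise in the rest cannot be told apart. Replicate 3 of the NaAsO2 insoluble fraction stood apart, because RN7SL1, the RNA of the signal recognition particle, took 5.79% of its exon counts against 0.426% to 1.23% in the other 11 insoluble libraries and 7.51% to 15.5% in the soluble ones. Several results that rest on this library are given with and without it. By chi-square per degree of freedom its pairs within the group came to 124 and 139, and replicate 3 of the RK-33 soluble fraction (31.5 and 22.5) and of the Combo insoluble fraction (26.9 and 33.7) also lay apart, against 2.42 to 6.85 for the other pairs. Without the RK-33 soluble library 30 genes in place of 32 were called in the fraction ratio of RK-33 and 12 in place of 13 for RK-33 over both fractions. Without the Combo pellet the 27 calls of the Combo fraction ratio and the 3 of the pellets after arsenite given on RK-33 kept their number. Among markers of mesenchymal and bone cells, VIM, SPARC and COL1A1 had medians of 821, 1552 and 1240 CPM, RUNX2 64.4 CPM, and COL1A2 and BGLAP were near 0 (0.161 and 0.198 CPM). Of 5 markers of other cell types EPCAM, CDH1, PTPRC and PECAM1 had low medians of 3.35, 4.82, 1.14 and 2.05 CPM, and CD3E had 2 counts in all 24 libraries together.

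COPG1, a large subunit of the COPI coat (chr3:129249606-129277773, plus strand, GRCh38), had more CPM in the pellet than in the soluble fraction of Ctrl cells. It had 99.8, 117 and 112 CPM in the soluble libraries and 189, 192 and 212 CPM in the insoluble ones. After arsenite the order was turned round, with 206, 199 and 234 CPM in the soluble and 107, 110.1 and 125 CPM in the insoluble libraries. The insoluble-over-soluble ratio went from a log2 value of 0.85 (SE 0.11) to -0.90 (SE 0.11), a shift of -1.75 (SE 0.15). Without the library that stood apart the shift was -1.74. After RK-33 alone COPG1 had 138, 162 and 169 CPM soluble and 117, 118 and 118 CPM insoluble, and after the Combo 191, 168 and 154 and 109, 105 and 113 CPM. In both treatments every insoluble library lay below every soluble one. These libraries were not part of the choice, and edgeR's quasi-likelihood test gave an insoluble-over-soluble log2 ratio of -0.41 (SE 0.11, adjusted p = 0.00277) in RK-33 and of -0.65 (SE 0.11, adjusted p = 3.04e-05) in Combo.

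**Figure D1:**
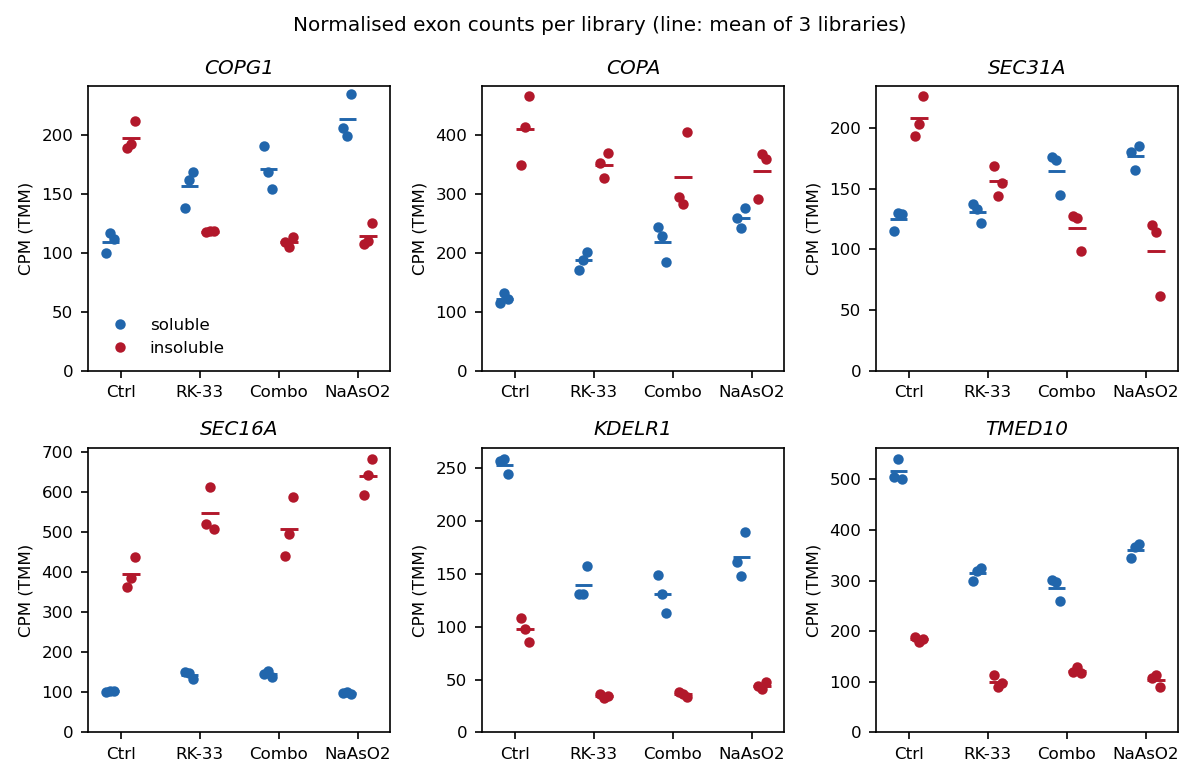
CPM (TMM-scaled exon counts) of 6 of the mRNAs in all 24 libraries, soluble fraction in blue and insoluble in red, by treatment, with a line at the mean of 3 libraries. COPG1 changes sides between Ctrl and the other treatments, COPA and SEC31A gain soluble signal after NaAsO2, SEC16A gains insoluble signal, and KDELR1 and TMED10 are lower in both fractions outside Ctrl.

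In Ctrl cells the other 37 genes split by role. Of these, 12 were higher in the insoluble fraction and 20 in the soluble fraction, where 24.4% and 26.6% of all genes tested passed in these directions, and 13 differed at least 2-fold (22.5% of all genes). Their median log2 ratio over all 38 genes was -0.57, against -0.03 over all genes tested. The large COPI subunits, most COPII coat genes, SEC16A and GBF1 were on the pellet side, and the small COPI subunits, the SAR1 and most ARF GTPases and all 12 receptor and SNARE genes, 10 of them past the test, on the soluble side. After arsenite 3 of 37 were higher in the insoluble fraction (27.9% of all genes) and 22 in the soluble one (29.7%). After RK-33 the counts were 9 (29.2%) and 23 (30.4%) of 38, and after the Combo 5 (24.1%) and 22 (28%) of 38. Without replicate 3 of the NaAsO2 insoluble fraction, 33 of 37 were called in arsenite in place of 25.

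**Figure D2:**
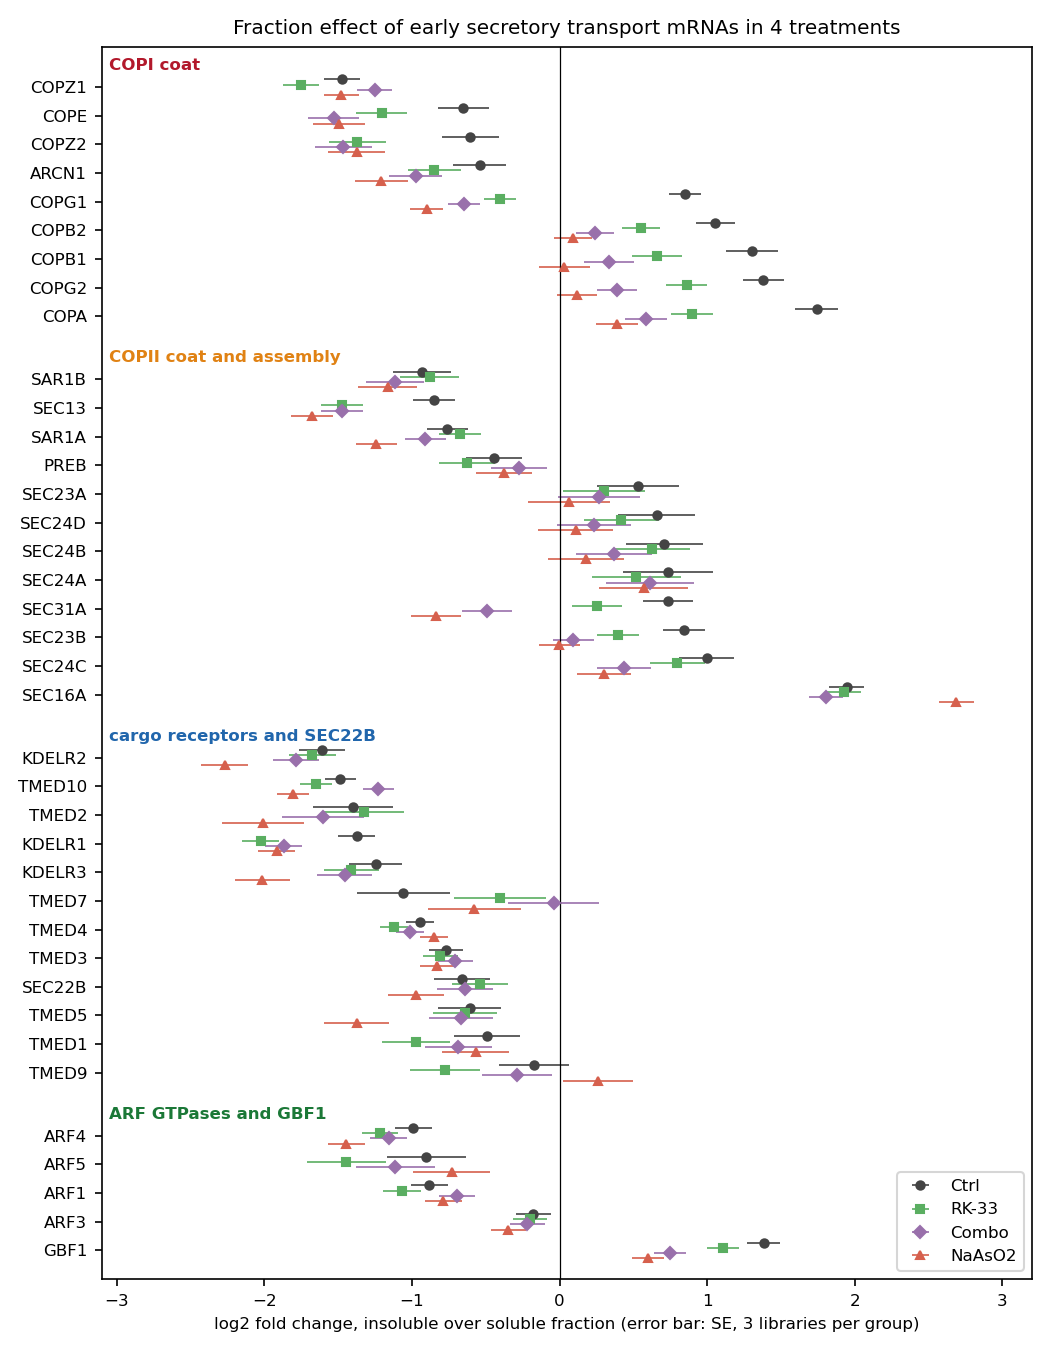
Log2 ratio of insoluble to soluble fraction for each of the 38 mRNAs in the 4 treatments, grouped by role and ordered by the Ctrl value, with the standard error of the fit over 3 libraries per group. The large COPI subunits move left from Ctrl to RK-33, Combo and NaAsO2, from 1.74 to 0.39 for COPA, while SEC16A moves right to 2.69 in NaAsO2 alone.

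The change of that ratio by arsenite is called the arsenite shift here, the log2 insoluble-over-soluble ratio in NaAsO2 minus that in Ctrl. Of the 37 genes, 13 fell, that is toward the soluble fraction relative to other RNA, and 1 rose, where 11.4% and 11% of all genes tested passed in these directions. A shift of at least 2-fold was called for 4 of the 37 (9.56% of all genes), all 4 toward the soluble fraction. The median over the 38 genes was -0.53, against -0.02 over all genes, and 31 of 38 shifts were negative. Without the library that stood apart the median was -0.28 and 29 were negative. Leaving out 1 library at a time left 9 to 14 calls, the fewest without replicate 1 of the Ctrl soluble fraction. The Ctrl and NaAsO2 libraries chose COPG1 and with it the set, so these counts describe the set.

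In the COPI coat 6 of the 8 genes besides COPG1 fell in the arsenite shift and all 9 values were negative. COPA, the alpha subunit (chr1:160288594-160343566, minus strand), had 115, 132 and 122 CPM in the Ctrl soluble and 349.7, 414 and 466 CPM in the Ctrl insoluble libraries. After arsenite it had 259.6, 244 and 277 CPM soluble and 292, 369 and 360.4 CPM insoluble, so that the soluble values rose clear of Ctrl while the insoluble ranges overlapped. Its ratio fell from a log2 value of 1.74 (SE 0.15) to 0.39 (SE 0.14), a shift of -1.35 (SE 0.20, adjusted p = 6.32e-05) by edgeR's quasi-likelihood test. COPG2, the second gamma subunit, went from 15.6, 14.2 and 14.6 CPM soluble and 33.4, 37.7 and 44.3 CPM insoluble to 22.5, 27.2 and 27.7 and 28.5, 31.9 and 23.6 CPM, a shift of -1.26 (SE 0.19, adjusted p = 8.92e-05) in the same fit. In both genes the 2 fractions were apart in Ctrl. After arsenite COPG2's insoluble values ran into the soluble range only through the library that stood apart (23.6 CPM). Without that library COPG2's shift was -1.07.

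COPB1 and COPB2, the beta subunits, shifted by -1.27 and -0.96, COPE by -0.84 and COPZ2, a small zeta subunit, by -0.77 on the log2 scale. Without the library that stood apart the values were -0.92, -0.73, -0.98 and -0.95. COPB2 had 51.4, 46.2 and 50.3 CPM in Ctrl soluble and 94.3, 99.3 and 114 CPM in Ctrl insoluble libraries, and 72.1, 65.2 and 75.6 and 81, 86.4 and 59.2 CPM after arsenite. Of its merged exon bases 34.1% are shared with MRPS22 on the opposite strand, and the counting used no strand, so part of its reads may have been lost or belong to the neighbour. ARCN1, the delta subunit, had a shift of -0.67 (SE 0.25, adjusted p = 0.0605). COPZ1, the other zeta subunit, had a shift of -0.01 (SE 0.17, adjusted p = 0.983).

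COPZ1 rose in both fractions after arsenite. It had 66.6, 84.3 and 76.4 CPM in Ctrl soluble and 26.3, 27.8 and 27.8 CPM in Ctrl insoluble libraries, and 103, 93.4 and 109 and 36.6, 35 and 38.3 CPM after arsenite, with no overlap in either fraction. The log2 change was 0.43 (SE 0.12, adjusted p = 0.0175) in the soluble and 0.42 (SE 0.12, adjusted p = 0.00788) in the insoluble fraction.

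Split by fraction, more COPI mRNAs changed in the soluble than in the insoluble fraction. In the soluble fraction 7 of the 8 COPI genes other than COPG1 rose after arsenite, from COPZ1 at 0.43 to COPA at 1.08, and all 9 values were positive. Among all 37 genes 11 rose and 3 fell in the soluble fraction, against 6.31% and 7% of all genes tested. In the insoluble fraction COPB1, COPB2 and COPG2 fell by 0.64, 0.44 and 0.46 and COPZ1 rose, and among the 37 genes 4 rose and 12 fell (21.2% and 21.8% of all genes). The soluble count was 6 without replicate 3 of the NaAsO2 soluble fraction, 7 without replicate 1 or 3 of the Ctrl soluble fraction, 9 without its replicate 2 and 8 without replicate 1 of the NaAsO2 soluble fraction, all against 14. The insoluble count was 10 without replicate 3 of the Ctrl insoluble fraction, against 16. Without replicate 3 of the NaAsO2 insoluble fraction it was 18, and COPB2, COPG2, SAR1A, PREB and TMED2 were no longer called. COPB1 was still called there, at -0.31.

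**Figure D3:**
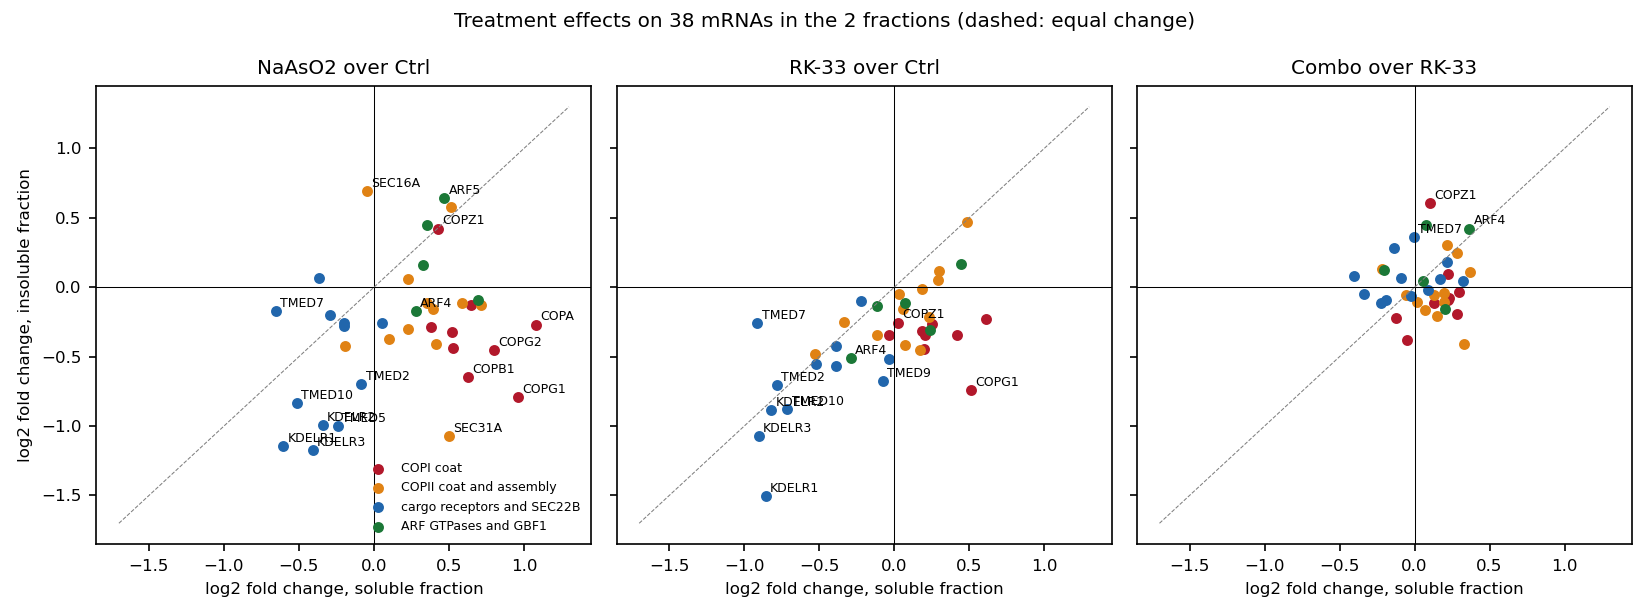
Log2 fold change in the soluble fraction (x axis) against the insoluble fraction (y axis) for the 38 mRNAs, in NaAsO2 over Ctrl, RK-33 over Ctrl and Combo over RK-33, coloured by role. COPI genes lie right of and below the line of equal change after NaAsO2 (COPA at 1.08 and -0.27), the 3 KDELR genes and TMED10 lie below 0 in both fractions after NaAsO2 and RK-33 (KDELR1 at -0.86 and -1.51 after RK-33), and no gene passes 0.61 in Combo over RK-33.

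The COPII genes took different ways. SEC31A, the outer cage subunit (chr4:82818509-82901166, minus strand), had 115, 129.9 and 129 CPM soluble and 194, 203 and 226 CPM insoluble in Ctrl, and 179.9, 165 and 185 and 120.2, 114 and 61.4 CPM after arsenite. Every insoluble library lay above every soluble one in Ctrl and below it after arsenite, a shift of -1.57 (SE 0.24, adjusted p = 7.65e-05). The lowest insoluble value is from the library that stood apart, and without it the shift was -1.24. SEC13, its partner in the cage, and SEC23B, of the inner coat, shifted by -0.83 and -0.84. SEC23B had 21.9, 30.4 and 24 CPM soluble and 39.7, 48.2 and 48.8 CPM insoluble in Ctrl and 44, 36.7 and 44.3 and 41, 47.9 and 35.9 CPM after arsenite, when the fractions overlapped.

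The 4 SEC24 genes, whose products bind cargo, and SEC23A had shifts from -0.16 (SEC24A) to -0.70 (SEC24C), none of which passed the test. SEC24C had 64.2, 77.3 and 70.9 CPM soluble and 129.6, 139 and 155 CPM insoluble in Ctrl, and 108, 98.7 and 112 and 148, 167 and 76.5 CPM after arsenite, with the lowest insoluble value in the library that stood apart. That library also had the lowest value of its group for SEC23A, 40.3 CPM against 157 and 161 CPM. The same held for SEC24B (15.7 against 52.2 and 47.6 CPM) and SEC24D (14.6 against 44.3 and 47.1 CPM). For SEC24A it had 8.06 CPM against 34.8 and 31.5 CPM, where the Ctrl pellets had 24, 22.2 and 26 CPM. The shifts of these genes without that library are not given here. SEC24C shares 42.8% of its exon bases with a gene on the opposite strand.

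SEC16A, the scaffold of ER exit sites (chr9:136440096-136483759, minus strand), was the 1 gene called in the other direction, among 7 of the 38 with a positive shift. It had 101, 104 and 103 CPM soluble and 362, 385 and 437 CPM insoluble in Ctrl, and 98.9, 102 and 96.7 and 592, 643 and 681 CPM after arsenite. The soluble libraries hardly differed while every arsenite pellet lay above every Ctrl pellet, and the log2 change was -0.05 (SE 0.11, adjusted p = 0.811) in the soluble and 0.69 (SE 0.11, adjusted p = 6.14e-05) in the insoluble fraction. The shift was 0.74 (SE 0.16, adjusted p = 0.00181). With a canonical transcript of 9018 nt, SEC16A is the longest of the 38. PREB, the exchange factor of SAR1, rose by 0.58 in the insoluble fraction, a call not made without the library that stood apart, and the SAR1 genes had shifts of -0.48 and -0.23 that did not pass.

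The 12 receptor and SNARE mRNAs were on the soluble side in Ctrl, 10 of them past the test, with log2 ratios from -0.17 (TMED9) to -1.61 (KDELR2). Arsenite lowered KDELR1 and TMED10 in both fractions. KDELR1 had 257, 258 and 244 CPM soluble and 109, 98.3 and 85.8 CPM insoluble in Ctrl, and 161, 148 and 189 and 43.5, 41 and 48 CPM after arsenite, with no overlap in either fraction. It changed by -0.60 (SE 0.12, adjusted p = 0.00214) in the soluble and -1.15 (SE 0.12, adjusted p = 5.17e-07) in the insoluble fraction. TMED10 went from 505, 540.3 and 501 and 189, 179 and 185 CPM to 344, 366 and 373 and 107, 113 and 89.1 CPM, again with no overlap, with log2 changes of -0.52 and -0.84.

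KDELR2 had 335, 347 and 323 CPM soluble and 132, 99.8 and 96.9 CPM insoluble in Ctrl and 250.1, 244 and 299 and 64.4, 59.7 and 40.2 CPM after arsenite. Its change was -0.34 (SE 0.15, adjusted p = 0.138) in the soluble and -0.995 (SE 0.16, adjusted p = 4.27e-05) in the insoluble fraction. TMED4 had 116, 125 and 117 CPM in Ctrl soluble and 102, 94.9 and 96.7 CPM in NaAsO2 soluble libraries and fell by 0.29 there. In the pellet TMED4 had 63.1, 64 and 59.1 CPM in Ctrl and 49.9, 51 and 61.9 CPM after arsenite, a log2 change of -0.20 that did not pass the test.

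In all, 3 receptor genes fell in the soluble fraction (KDELR1, TMED4, TMED10) and 6 in the insoluble one (KDELR1, KDELR2, KDELR3, TMED2, TMED5, TMED10). In the arsenite shift only the KDEL receptors passed, at -0.54, -0.66 and -0.77 for KDELR1, KDELR2 and KDELR3. KDELR2 and KDELR3 were not called without the library that stood apart, at -0.40 and -0.49.

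TMED9 had 169.6, 170.3 and 165 CPM soluble and 143, 150.3 and 154 CPM insoluble in Ctrl, and 127, 136 and 128 and 94.6, 118 and 258 CPM after arsenite. The highest of the last 3 values is from the library that stood apart, and TMED9's shift of 0.44 did not pass the test. TMED1 and TMED7 share 48.3% and 26% of their exon bases with other genes, so their counts are uncertain.

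GBF1 (chr10:102245371-102382899, plus strand) was higher in the pellet in Ctrl and fell in the arsenite shift. It had 67.5, 73.2 and 69.7 CPM soluble and 164, 181 and 203 CPM insoluble in Ctrl and 115, 108 and 117 and 175, 192 and 147 CPM after arsenite, a rise of 0.69 in the soluble fraction and a shift of -0.79 (SE 0.15, adjusted p = 0.000837). The soluble libraries did not overlap between the treatments, and the insoluble ones did. ARF1, which recruits COPI, had 172, 226 and 211 CPM soluble and 96, 122 and 113 CPM insoluble in Ctrl and 262, 235 and 279.9 and 157, 157 and 137 CPM after arsenite, and rose by 0.45 in the insoluble fraction. ARF4 went from 113, 122 and 114 and 52.8, 61.8 and 61.2 CPM to 139.5, 139 and 145 and 55.8, 58.3 and 41.4 CPM, with a shift of -0.45 (SE 0.17, adjusted p = 0.0617). ARF5 had 51.9, 64.1 and 57.5 and 31.9, 29.1 and 31.8 CPM in Ctrl and 72.9, 81.2 and 86 and 32.5, 31.2 and 82.4 CPM after arsenite, the last value being from the library that stood apart, and it shares 38.2% of its exon bases with other genes. None of the 4 ARF shifts passed the test.

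Arsenite given after RK-33 was compared with RK-33 alone, in 12 libraries that had no part in the choice of COPG1. No shift passed the test in any of the 38 genes with edgeR's quasi-likelihood test, and none with edgeR's likelihood ratio test or DESeq2, where 0.345% of all genes rose and 0.136% fell. At an unadjusted p under 0.05 there were 2297 of all 17666 genes and 6 of the 38, SEC31A, COPG2 and GBF1 with negative values and COPZ1, TMED10 and ARF1 with positive ones. The median over the 38 genes was -0.10, against 0.01 over all genes, and 24 of 38 values were negative. With 1 library left out the median ran from -0.15 to -0.01, nearest to 0 without replicate 3 of the Combo insoluble fraction, and with exon plus intron counts it was -0.01 with 19 values negative. With the 4 RK-33 and Combo groups fitted alone, 1 gene fell. COPG1's shift was -0.24 (SE 0.15, adjusted p = 0.521), and 8 of the 9 COPI values were negative with a median of -0.31.

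Among the genes nearest to a call, SEC31A had 138, 133 and 122 CPM soluble and 168, 144 and 155 CPM insoluble after RK-33, and 176, 174 and 145 and 128, 125 and 98.7 CPM after the Combo. All pellet values were lower in Combo than in RK-33 and all soluble values higher, a shift of -0.74 (SE 0.24, adjusted p = 0.174). COPG2 had 15.6, 18.2 and 19 and 32.7, 31.7 and 31.8 CPM after RK-33 and 23.7, 21.6 and 18.8 and 26.5, 27.3 and 30.5 CPM after the Combo, a shift of -0.47 (SE 0.19, adjusted p = 0.293). GBF1 had 95.8, 97.2 and 93 and 208, 208 and 199.7 CPM, then 119, 114 and 95.8 and 175, 182 and 195 CPM. Pellet values were lower and soluble values overlapped, at -0.36 (SE 0.15, adjusted p = 0.308).

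COPB2, SEC23B and SEC24C had shifts of -0.31, -0.30 and -0.36 that did not pass. COPB2 had 56.2, 57.7 and 54.3 and 83.8, 73.5 and 89.1 CPM after RK-33 and 73, 64 and 60.3 and 74.4, 71.9 and 87.1 CPM after the Combo. SEC23B had 25.7, 30.4 and 33.4 and 37.8, 38 and 42 CPM, then 33.8, 35.2 and 33.7 and 35.7, 33.2 and 40.5 CPM. The pellet values of both genes overlapped between RK-33 and Combo, and their soluble values lay above RK-33 after the Combo. SEC24C had 75.9, 83.1 and 82.7 and 141, 139 and 141 CPM, then 97.7, 98 and 72.4 and 131, 126 and 108 CPM, with pellets lower and soluble values overlapping.

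TMED10 had 299.9, 319 and 325 CPM soluble and 113, 90 and 98.1 CPM insoluble after RK-33 and 301, 297 and 260.1 and 119, 129.9 and 118 CPM after the Combo, higher in every Combo pellet, with a shift of 0.42 (SE 0.15, adjusted p = 0.224). TMED9 had 151, 151 and 177 and 93.8, 99.8 and 85.9 CPM, then 123, 121 and 117 and 75.8, 84.8 and 135 CPM. KDELR1 had 131, 131 and 157 and 36.4, 32.3 and 34.4 CPM, then 149, 131 and 113 and 37.8, 36.5 and 33.6 CPM, values that overlapped in both fractions.

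In the pellet arsenite after RK-33 raised 3 of the 38 genes and lowered 0, where 4.17% and 2.95% of all genes passed. COPZ1 had 22.8, 22.7 and 23.2 CPM in RK-33 pellets and 32.8, 37 and 34.8 CPM in Combo pellets, a rise of 0.61 (SE 0.12, adjusted p = 0.0031), and 66.1, 74.7 and 90.4 and 88.2, 86.8 and 73.6 CPM in the soluble libraries. ARF1 had 106, 95.4 and 103 and 153, 136 and 127 CPM in the pellets and rose by 0.45, and 191, 212 and 237 and 242, 230.2 and 201 CPM in the soluble libraries. ARF4 had 44.6, 39.2 and 39.5 and 60.5, 59.2 and 45.6 CPM in the pellets and rose by 0.42, and 94.8, 98.4 and 93 and 128, 120.1 and 121 CPM in the soluble libraries. For all 3 genes every Combo pellet lay above every RK-33 pellet. ARF5 had 51.6, 59.6 and 93.4 and 30, 22.4 and 22.6 CPM after RK-33 and 60.6, 60.6 and 56.2 and 26.6, 22.9 and 32.5 CPM after the Combo, overlapping in both fractions. Leaving out 1 library of the pellets at a time left 1 to 3 calls, and COPZ1 was called in each case. No gene of the 38 passed in the soluble fraction (2.90% of all genes rose and 0.742% fell) by edgeR's quasi-likelihood or likelihood ratio test or DESeq2, and 2 had an unadjusted p under 0.05, as did 2635 of all 17666 genes.

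The summed CPM of 5 stress response genes (HSPA1A, HSPA1B, DNAJB1, HMOX1 and ATF3) was 221 to 249 in Ctrl soluble, 500 to 530 in NaAsO2 soluble, 1064 to 1294 in RK-33 soluble and 3511 to 4382 in Combo soluble libraries, with no overlap between RK-33 and Combo. Its part in the shifts was not tested. The paper reports the opposite order, with ATF3, DNAJB1, HSPA6 and HSPA1B lower after RK-33 plus arsenite than after arsenite alone. Its comparison of these treatments joined both fractions and was normalised to spike-ins. Here the soluble medians of ATF3 were 69.5 CPM in NaAsO2 and 386 CPM in Combo, and those of HSPA1B 84.4 and 1189 CPM. The source of this disagreement was not tested.

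The difference of the 2 arsenite shifts, the one under RK-33 minus the one without, passed the test in 2 of the 37 genes. COPA rose by 1.04 (SE 0.28, adjusted p = 0.0498) and SEC16A fell by 0.86 (SE 0.22, adjusted p = 0.0379), where 1.69% and 1.09% of all genes rose and fell. Both calls depended on single libraries. Over the 24 fits that left out 1 library the count ran from 0, for example without replicate 1 of the Ctrl or replicate 3 of the RK-33 soluble fraction, to 4 without replicate 3 of the NaAsO2 insoluble fraction. For COPG1 the difference was 1.51 (SE 0.22), given without a test because its Ctrl and NaAsO2 values chose the set. SEC16A was also the 1 gene of 37 whose insoluble-over-soluble ratio differed between Combo and NaAsO2, at -0.88 (SE 0.16, adjusted p = 0.0113) (0.221% of all genes fell and 0.136% rose). It had 151, 148 and 133 and 519, 612 and 506 CPM after RK-33 and 145, 154 and 137 and 441, 495 and 587 CPM after the Combo, overlapping in both fractions. With the lysate (treatment and replicate number) as a replicate block neither comparison had a call, at -0.89 (adjusted p = 0.0988) for SEC16A in Combo against NaAsO2 and, for the difference of the 2 shifts, 1.02 (adjusted p = 0.14) for COPA and -0.87 (adjusted p = 0.112) for SEC16A. The NaAsO2 and Combo pellets of the same number deviated together from their group means, with correlations across genes of 0.459, 0.383 and 0.667. The Combo call was also lost without replicate 3 of the NaAsO2 soluble or replicate 1 of the Combo insoluble fraction.

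RK-33 alone, averaged over both fractions, lowered receptor mRNAs. Against Ctrl 11 of the 37 genes fell and 2 rose, where 9.13% and 6.80% of all genes did. Of the 12 receptor and SNARE genes 8 fell, KDELR1, KDELR2, KDELR3, TMED2, TMED3, TMED4, TMED5 and TMED10, and all 12 values were negative with a median of -0.56. KDELR1 fell the most, by 1.18, followed by KDELR3 by 0.99, KDELR2 by 0.85, TMED10 by 0.79 and TMED2 by 0.74. KDELR2 had 194, 188 and 188 CPM soluble and 65, 52.2 and 61.1 CPM insoluble after RK-33, below every Ctrl library of the same fraction, and 227, 213 and 201 and 68.7, 66 and 51.2 CPM after the Combo. TMED4 had 90.9, 88.6 and 94.4 and 43, 41.6 and 41.3 CPM after RK-33, also below every Ctrl library of the same fraction, and 81.7, 78.5 and 74.8 and 39.8, 36.4 and 40.1 CPM after the Combo. SAR1B, SAR1A and ARF4 fell by 0.51, 0.29 and 0.40. The 2 genes that rose were SEC16A, by 0.48 (SE 0.08, adjusted p = 0.000187), and GBF1, by 0.31 (SE 0.08, adjusted p = 0.00819). No COPI gene passed by edgeR's quasi-likelihood test, none had an unadjusted p under 0.05, and their values ran from -0.19 to 0.19. This mean joins opposite signs. In the soluble fraction 8 of 9 COPI values were positive, with a median of 0.21. There 1 of the 8 tested rose, as did 369 of all 17666 genes. In the pellet all 9 were negative, with a median of -0.34 and no call.

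COPI ratios after RK-33 lay between those of Ctrl and NaAsO2 for the large subunits. COPA had 172, 189 and 203 CPM soluble and 353, 327 and 369.9 CPM insoluble after RK-33 and 244, 229 and 185 and 296, 284 and 406 CPM after the Combo, with fraction ratios of 0.90 and 0.58 on the log2 scale against 1.74 in Ctrl. The change of the ratio by RK-33 was negative for all 9 COPI genes, with a median of -0.55 and -1.26 for COPG1, and COPA passed the test at -0.84 (SE 0.20, adjusted p = 0.0281). That call was lost in most fits that left out 1 library. The arsenite and RK-33 comparisons share the Ctrl libraries, so their values are set side by side only.

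The companion genes of the pathway were counted in the same fit. Of 48 other early secretory genes, which include tethers, SNAREs and export receptors, 4 rose and 11 fell in the arsenite shift (11% and 11.4% of all genes), among them the tether genes NBAS (-0.94) and ZW10 (-1.40) and the SNARE regulator SCFD1 (-1.42). Of 23 genes of the ER translocon and signal recognition, which feed proteins into the ER, 15 fell and 0 rose, SRP54 by 1.38, SEC61B by 1.07 and SRP14 by 0.99. In the arsenite pellet 21 of these 23 fell (21.8% of all genes), SEC61A1 by 1.23. After RK-33, both fractions together, 19 of the 23 fell (9.13% of all genes), among them TRAM1 by 1.06, SEC11A by 0.82 and SSR2 by 0.67, and of the 48 others 10 fell and 4 rose (9.13% and 6.80% of all genes). Under RK-33 the arsenite shift called 0 of the 48 and 0 of the 23, with 5 and 2 at an unadjusted p under 0.05, as were 2297 of the 17666 genes tested.

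Introns gave another order. Intron counts of 33 genes were tested in the same 12 libraries, with arsenite given after RK-33. The paper names intron-derived transcripts, lariats and unspliced mRNAs as possible sources, which the counts do not separate. Nuclear RNAs were present too, with MALAT1 at medians of 4749 CPM in RK-33 and 4148 CPM in Combo pellets. NEAT1 had 2345 and 1541 CPM there and KCNQ1OT1 67 and 149 CPM. In RK-33 and Combo soluble libraries MALAT1 had higher medians of 10835 and 9861 CPM. NEAT1 had 527 and 626 CPM and KCNQ1OT1 15.7 and 34 CPM in those soluble libraries. The part of these RNAs in the intron values was not tested. Of the 33 genes 4 rose and 9 fell in the soluble fraction (16.5% and 12.2% of all introns tested), and 3 rose and 12 fell in the insoluble fraction (15.6% and 14.2%). COPG1 introns had 44.9, 51.2 and 53 CPM in RK-33 pellets and 22.1, 20.8 and 23.2 CPM in Combo pellets. They fell there by 1.17 (SE 0.18, adjusted p = 8.24e-06), while its exons changed by -0.11 (SE 0.11, adjusted p = 0.619). SEC23A introns fell from 36.3, 39.1 and 36 CPM to 14.2, 14.9 and 16.8 CPM, by 1.28, with an exon change of 0.25 that did not pass. TMED10, ARCN1 and COPZ1 introns fell by 1.22, 1.04 and 1.32 in the pellet and by 0.92, 1.15 and 1.33 in the soluble fraction. COPZ1 introns had low values, with 3.91, 5.39 and 4.30 CPM in RK-33 pellets and 2.34, 1.27 and 1.78 CPM in Combo pellets.

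ARF4 introns went the other way, from 65.8, 49.3 and 54.5 CPM in RK-33 pellets to 141, 146 and 199 CPM in Combo pellets. They rose by 1.52 (SE 0.21, adjusted p = 2.58e-06) there and by 1.13 in the soluble fraction, where the values were 102, 96.6 and 120.1 CPM in RK-33 and 214, 239 and 243 CPM in Combo. Of ARF4's merged exon bases 18.5% are shared with an antisense gene, and reads of both could not be told apart. COPB1 introns rose in both fractions, by 0.87 and 0.63. The shift of intron counts between fractions by arsenite under RK-33 passed in 0 of 33 genes with edgeR's quasi-likelihood test (0.241% of all introns rose and 0.488% fell). It had 6 of the 33 genes at an unadjusted p under 0.05, against 3045 of all 17406, all negative, and 2 calls with the likelihood ratio test and 5 with DESeq2, all lower. The share of intron counts was 22.3% in one Combo pellet and 28.4% in the soluble library of the same number, the reverse of the order in the other libraries except replicate 2 of NaAsO2, and its part in these values was not tested.

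**Figure D4:**
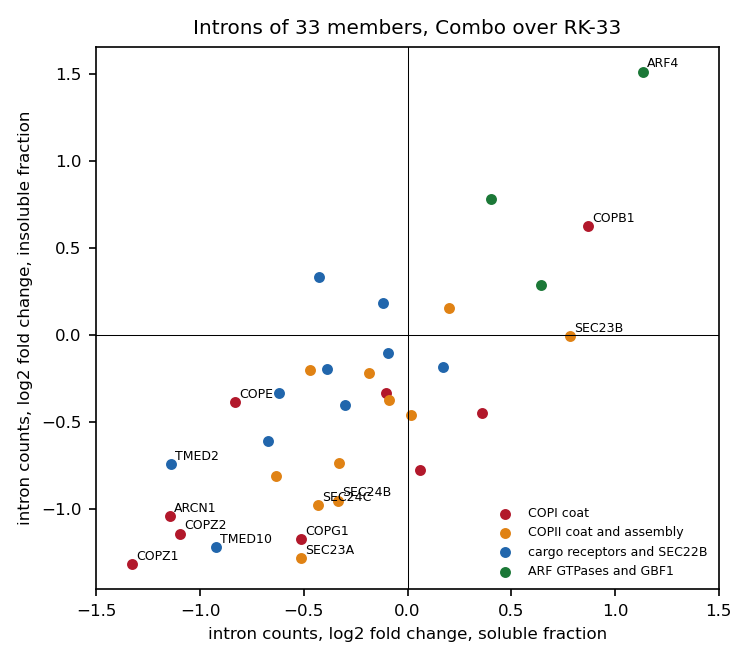
Log2 fold change of intron counts in Combo over RK-33, soluble fraction on the x axis and insoluble fraction on the y axis, for 33 genes coloured by role. COPG1, SEC23A, TMED10, ARCN1 and COPZ1 lie at -1.04 or lower on the y axis, and ARF4 at 1.52.

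Transcript length ran with the fraction ratio. Over the 38 genes the log2 ratio in Ctrl had a Pearson correlation of 0.50 with log2 canonical transcript length, and over 13441 protein-coding genes it was 0.51. The genes share libraries and base composition, and the correlations are descriptions across genes. For the arsenite shift the values were -0.03 and 0.19, and for the arsenite shift under RK-33 they were -0.37 and -0.11. The 11 members of 1500 to 3000 nt had a median shift of -0.08, close to the -0.05 of all 3977 genes of that length. The 5 members below 1500 nt had -0.77 against -0.28 for 1622 genes. The 13 members of 3000 to 5000 nt had a median shift of -0.70 against 0.07 for all 3936 genes of that length, and the 9 of at least 5000 nt -0.48 against 0.17. COPG1, whose Ctrl and NaAsO2 values chose the set, is among the 13, so their median only describes the set. COPA, at 5318 nt, and GBF1, at 6403 nt, were among those that fell, and SEC16A, at 9018 nt, was the exception above.

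**Figure D5:**
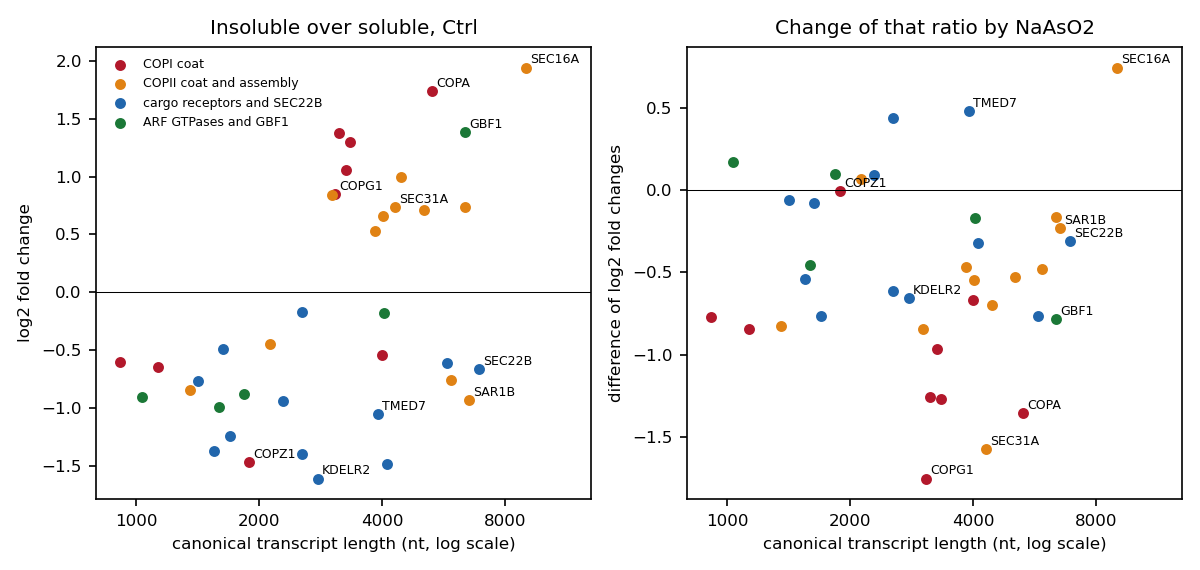
Log2 insoluble-over-soluble ratio in Ctrl (left) and its change by NaAsO2 (right) against canonical transcript length on a log axis for the 38 genes. The ratio rises with length (r = 0.50), whereas on the right COPG1, SEC31A and COPA lie lowest and SEC16A highest.

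Promoters were compared because many genes of ER export and retrieval are known targets of the unfolded protein response. A window from 250 bases before to 50 bases after the RefSeq start site (GRCh38.p14) was present for 33 of the 38 genes, all but SEC24D, ARF4, TMED9, KDELR2 and TMED4. The letters TGACGTGG, the core of the unfolded protein response element bound by ATF6 and XBP1, were searched on both strands, and a gene counted if any of its windows held them. They occurred in 9 of 33 members (27.3%), 0.729% of 35116 single windows, 1.28% of 11789 genes tested, 2 of 37 other early secretory genes and 4 of 20 translocon genes. The ER stress elements ERSE and ERSE-II occurred in no member. A match is a description of letters and not of binding. The matches below are printed on the gene's strand with the motif, or its reverse complement, in capitals, and they fall in genes that fell in the arsenite shift (COPA, COPB1, COPB2, GBF1 and KDELR3), in the gene that rose (SEC16A) and in genes without a call (ARF1, SEC23A, SEC24A).
ARF1 (chr1:228082676-228082715, plus strand): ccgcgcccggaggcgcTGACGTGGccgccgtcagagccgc
COPA (chr1:160343222-160343261, minus strand): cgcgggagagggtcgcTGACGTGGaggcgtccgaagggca
COPB1 (chr11:14499836-14499875, minus strand): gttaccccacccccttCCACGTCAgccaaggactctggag
COPB2 (chr3:139389631-139389666, minus strand): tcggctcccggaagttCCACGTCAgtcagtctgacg
COPB2 (chr3:139389820-139389859, minus strand): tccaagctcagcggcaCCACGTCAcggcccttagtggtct
GBF1 (chr10:102245521-102245560, plus strand): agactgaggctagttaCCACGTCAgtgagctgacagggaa
KDELR3 (chr22:38468034-38468073, plus strand): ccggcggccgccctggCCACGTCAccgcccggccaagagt
SEC16A (chr9:136484702-136484741, minus strand): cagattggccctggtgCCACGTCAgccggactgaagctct
SEC23A (chr14:39103216-39103255, minus strand): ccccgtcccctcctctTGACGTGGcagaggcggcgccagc
SEC24A (chr5:134648590-134648629, plus strand): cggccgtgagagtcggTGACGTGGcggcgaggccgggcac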

How the data were processed

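The authors sequenced 24 rRNA-depleted libraries and deposited raw counts of uniquely mapped fragments per gene, in separate tables for exons and introns. Per the submitters' notes and the file headers, reads were aligned to GRCh38.p13 with STAR 2.7.2b and counted with featureCounts 1.5.3 on GENCODE release 40, without strand although the kit was directional. Introns needed an overlap of 25 bases. The spike-ins of the kit are not used here, nor are the circRNA tables, in which 0 of the 38 genes is a host. Canonical transcript lengths come from GENCODE release 44, exon overlaps from the release 40 intervals used for the counts, and promoter windows from RefSeq.

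Genes averaging 1 CPM or more over the libraries were kept (17666 for exons, 17406 for introns), scaled with TMM and tested with edgeR 4.0.16 (glmQLFit, glmQLFTest) in a single fit of 24 libraries in 8 groups, with Benjamini-Hochberg adjustment over all genes. A call is an adjusted p under 0.05. The authors used edgeR's likelihood ratio test, run here as an alternative beside DESeq2 1.42.0, RLE factors, library size alone, no filter, exon plus intron counts, the compared groups alone, a replicate block (the authors paired the fractions of a condition in a separate test) and leaving out each library. The exon fit with the quasi-likelihood test was tried on simulated counts for the arsenite shift under RK-33. The other comparisons, the introns and the alternatives were not simulated. Precision is limited by 3 libraries per group and by depths of 8627294 to 15376554 exon counts. No library pair agreed within sampling noise.

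The members, the lists of related genes and the comparisons were chosen with earlier results of these data known. Values per library are given for COPG1, for the 3 members per role with the smallest adjusted p in the arsenite shift under RK-33 and for up to 3 called members per direction in each other comparison.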

Additional observations from a re-analysis of the deposited data

Results flagged for a closer look

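Effects of the same contrast that differed between treatments or fractions, each by edgeR's quasi-likelihood test of the difference itself, were found for a few of the genes. The arsenite effect on the pellet was less negative after RK-33 than without it for 5 of the 12 receptor and SNARE genes. The differences were 1.21 for KDELR1 (SE 0.18, adjusted p = 0.000193), 1.06 for KDELR2 (0.00362) and 1.11 for KDELR3 (0.01). TMED5 and TMED10 differed by 1.19 (0.0154) and 1.12 (9.28e-05), and ARF4 was more positive by 0.60 (0.0291). Of all 17666 genes tested 1098 rose and 959 fell in this comparison. TMED5 had 37, 29.5 and 14 CPM in NaAsO2 pellets, the lowest in the library that stood apart, and its difference was not fitted without that library. The 5 receptor genes and ARF4 had fallen after RK-33 alone, and the difference in the pellet is taken between Combo minus RK-33 and NaAsO2 minus Ctrl. For SEC16A the same difference was -0.80 (0.00248), since its rise in the pellet was seen without RK-33 and its values overlapped with it.

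In the soluble fraction the arsenite effect on COPA was smaller after RK-33, by -0.86 (0.0258), where 279 of all 17666 genes rose and 90 fell. The difference of the 2 arsenite shifts was 1.04 for COPA (0.0498) and -0.86 for SEC16A (0.0379), and the insoluble-over-soluble ratio of SEC16A was lower in Combo than in NaAsO2, at -0.88 (0.0113). With a replicate block these 3 calls were lost (0.14, 0.112 and 0.0988). RK-33 alone changed that ratio by -0.84 for COPA (0.0281) and -0.65 for KDELR1 (0.0496), where 107 of all 17666 genes rose and 279 fell. Numbers in brackets are adjusted p-values over all genes unless named SE. The COPA and KDELR1 calls lie close to the threshold of 0.05. In the change of the ratio by RK-33 alone, these calls were lost in most fits that left out 1 library, 21 times in all. They were lost 7 times under the other settings.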

How the results depend on the processing

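For the comparisons run under the alternatives, calls among the 37 or 38 genes kept their direction, and none was reversed. The differences of the arsenite effects within a fraction, flagged above, were not run under any alternative. These cover KDELR1, KDELR2, KDELR3, TMED5, TMED10, ARF4 and SEC16A in the pellet and COPA in the soluble fraction. Nor were they fitted with a library left out. The count for the arsenite shift, 14 as reported, was 9 with exon plus intron counts and 8 with the compared groups alone. For the arsenite shift under RK-33, 0 as reported, 1 was called with the compared groups alone. For arsenite in the soluble fraction, 14 as reported, it was 9 with library size alone, 8 with no filter and 30 with the compared groups alone, and in the insoluble fraction, 16 as reported, 4 with the compared groups alone. For arsenite under RK-33, the soluble count of 0 became 1 with exon plus intron counts and 2 with the compared groups alone, and the insoluble count of 3 became 1 with no filter. The single call of the RK-33 shift under arsenite became 2 with the likelihood ratio test, 2 with DESeq2 and 0 with the compared groups alone. The difference of the 2 arsenite shifts, 2 as reported, was 1 with RLE factors, 0 with no filter and 0 with exon plus intron counts. For introns the arsenite shift under RK-33, 0 as reported, was 2 with the likelihood ratio test and 5 with DESeq2. The cause of these changes was not tested.

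With a replicate block the RK-33 shift under arsenite had 0 calls and the difference of the 2 arsenite shifts 0, and the counts of the other comparisons moved by less than 1.5 times. The block was the lysate for comparisons that involve both fractions. The labels do not say that a number marks a shared lysate, and the correlations of same-numbered fractions of a treatment ran from -0.288 to 0.11. Between treatments of one fraction they ran from -0.31 to 0.667, and the NaAsO2 and Combo pellets alone had all 3 above 0.1, at 0.459, 0.383 and 0.667. Leaving out 1 library at a time gave 28 to 29 calls for the fraction ratio in Ctrl, 22 to 33 in NaAsO2, 29 to 31 in RK-33, 24 to 27 in Combo, 9 to 14 for the arsenite shift, 0 to 0 for that under RK-33, 6 to 11 and 10 to 18 for arsenite in the soluble and insoluble fraction, 0 and 1 to 3 under RK-33, 10 to 13 for RK-33 over both fractions, 0 to 1 for the RK-33 shift under arsenite, 0 to 4 for the difference of the shifts and 0 for introns. With 3 libraries per group, a gene near the threshold can change its call with 1 library.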
